A study of Mus musculus with 2 samples.

Results

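The oxidative phosphorylation genes described here are the nuclear genes whose names on the array mark them as subunits of respiratory complexes I to IV or of ATP synthase, or as cytochrome c (Cycs). They were taken by name alone, from probes named Nduf with the letter a, b, c, s or v, Sdha to Sdhd, Uqcr, Cox4 to Cox8, Atp5, Cyc1 and Cycs. This gave 85 genes with 120 probes, of 19748 named genes on the array. The names also caught 5 genes that are not subunits, and these are given apart. Of the 85 genes, 84 had a probe well above background and 1, Cox8c, had none. All 84 were measured at both ages.

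Fetal mouse lung of different ages was compared on 1 oligonucleotide array with a colour for each age: airway epithelium at E18.5, shortly before birth, and at E14.5, when the airways are still branching (embryonic days). Both came from wild-type male CD-1 fetuses, an outbred strain, with no other allele or treatment. At each age the epithelium of airways inside the lobes was cut by laser from sections of 1 lung, and its RNA was amplified and labelled, with Cy5 for E18.5 and Cy3 for E14.5. There was 1 sample per age and no dye swap, so no difference below has a replicate check, no p-value is given, and dye and age cannot be told apart. A gene is called different by size alone, at 2-fold or more, which is 1 on the log2 scale.

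Oxidative phosphorylation takes electrons from NADH (complex I) and succinate (complex II) through ubiquinone, complex III and cytochrome c to complex IV, where oxygen is reduced. Complexes I, III and IV move protons across the inner mitochondrial membrane, and ATP synthase lets them return and makes ATP. The catalytic core is surrounded by accessory subunits, and some core subunits of complexes I, III, IV and ATP synthase are encoded by the mitochondrial genome, the others in the nucleus. In the lung, ciliated cells use ATP for beating and alveolar type II cells for making surfactant.

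Values below are normalized intensities on a linear scale, or the log2 ratio of E18.5 over E14.5, in which a positive value means higher at E18.5. Intensities of different probes are not compared with one another. All probe positions are on the mouse build mm8.

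All 10 epithelial markers were measured at both ages, among them the lung epithelial factor Nkx2-1 (22109 at E18.5 and 32845 at E14.5) and the keratin Krt18 (125006 and 41452). All markers of the other cell types were also measured at both ages, so this does not check the tissue label. Past 2-fold on the higher side at E18.5 were 6 of 6 markers of secretory cells and 8 of 8 of ciliated cells, and on the lower side 8 of 8 markers of cycling cells. Markers of other cells also differed. Of the 8 alveolar type II markers 8 were at least 2-fold higher, of 10 leukocyte markers 7, and of 8 endothelial markers 3. Of 6 smooth muscle markers 5 were at least 2-fold lower. Of 8 erythroid markers 3 were called higher and 4 lower. The summed intensity of alveolar type II markers was 521367 at E18.5 and 44151 at E14.5, and that of cycling markers 44913 at E18.5 and 313296 at E14.5. It was 84200 at E18.5 and 4752 at E14.5 for leukocyte, 103313 and 15535 for endothelial, 147345 and 372639 for smooth muscle, and 524778 and 131017 for erythroid markers. At E18.5, 1 marker gave most of the leukocyte sum, Lyz1 (67401 at E18.5 and 496.2 at E14.5). Likewise 1 marker, Kdr (71669 and 4090), gave most of the endothelial sum at E18.5. No marker of these lists was below background at both ages. Their part in the values below was not tested, and in such dissected tissue fewer cells of a type and less RNA per cell cannot be told apart.

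Most members differed little between the ages, and after loess those that differed were mostly lower at E18.5. At least 2-fold higher were 4 of 84 (4.76%), against 17.2% of the 17315 genes measured, and at least 2-fold lower were 14 (16.7%), against 10.0% of all genes. The other 66 were within 2-fold. With the log2 ratios centred on their median in place of loess, 6 members were 2-fold higher and 7 were 2-fold lower. Of all 17315 genes, 3306 were 2-fold higher and 1517 were 2-fold lower with that centring. The larger share of lower members than of all genes was thus seen after loess and not with median centring. The log2 ratio was below 0 for 61 members (72.6%), against 45.4% of all genes. The members' median was −0.29, with quartiles of −0.76 and 0.04, against a median of 0.06 for all genes. With that centring, 41 members were below 0, the members' median was 0.02 and that of all genes 0.13, so the sign of the members' median depends on that choice while it stayed under that of all genes.

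The members are brightly hybridised, so they were also set beside genes of high intensity. An average log2 intensity of at least 14, a limit chosen after the values were seen, was reached by 68 members and 2029 genes. Of these members 1 (1.47%) was at least 2-fold higher, against 16.3% of all such genes, and 12 (17.6%) were at least 2-fold lower, against 12.4%. Below 0 were 53 of the 68 (77.9%), against 49.0%. Their median log2 ratio was −0.32, against 0.02.

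**Figure D1:**
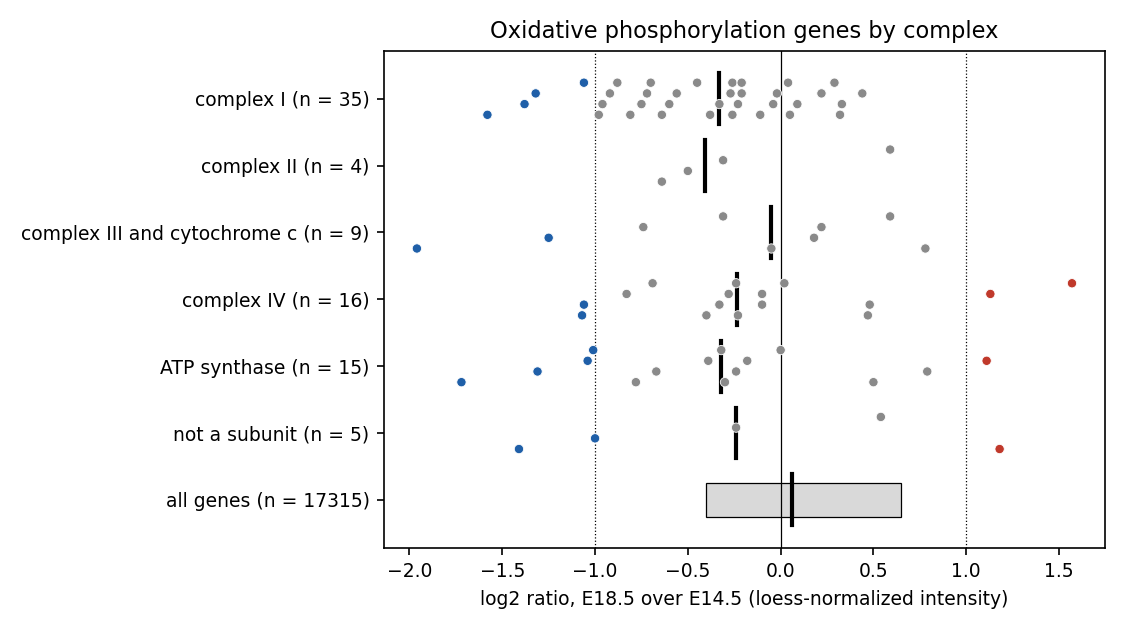
Log2 ratio of E18.5 over E14.5 (horizontal axis, after loess) for each measured member, by complex, with the black bar at the median; red points are past 2-fold upwards and blue points past 2-fold downwards, and dotted lines mark 2-fold. The bottom row gives all 17315 genes as a box from the lower to the upper quartile. The medians of complexes I, II, IV and ATP synthase lie at −0.33, −0.40, −0.24 and −0.32. That of complex III with cytochrome c lies at −0.05 and that of all genes at 0.06. With median centring the medians of complex III with cytochrome c, complex IV and ATP synthase turn positive (0.33, 0.13 and 0.08).

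Complex I, NADH dehydrogenase, is the largest set, with 35 genes measured. None was called higher at E18.5, against 17.2% of all genes, and 4 of the 35 were called lower, against 10.0%. Below 0 were 27 of the 35, against 45.4% of all genes. The median log2 ratio was −0.33 after loess and −0.01 with median centring.

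The 7 core subunits, which carry the flavin and the iron-sulphur clusters, stayed within 2-fold, with a median of −0.04 (0.20 with median centring). Ndufv1, which binds NADH, had an intensity of 22497 at E18.5 and 21725 at E14.5 (log2 ratio 0.05), and Ndufs1, which holds several iron-sulphur clusters, had 20405 and 23675 (−0.21). Both were nearly level between the ages. Lowest of the core was Ndufv2, another iron-sulphur subunit, with 12004 at E18.5 and 21039 at E14.5 (−0.81).

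The 28 accessory subunits, which surround the core, had a median log2 ratio of −0.42 and 23 were below 0. With median centring their median was −0.12. All 4 members of complex I that were at least 2-fold lower are accessory subunits, as are 28 of the 35 measured. Ndufa5, a subunit of the peripheral arm, had an intensity of 18398 at E18.5 and 55087 at E14.5, 2.99-fold lower at E18.5. Ndufa11, a membrane arm subunit, had 13027 and 33948 (log2 ratio −1.38), and a second probe gave −1.33. Ndufs6, a zinc-binding subunit of the peripheral arm, had 23633 and 58950 (−1.32), and its other probes gave −1.29 and −1.19. So for Ndufa11 and Ndufs6 all usable probes gave a 2-fold difference, while Ndufa5 has 1 probe. Ndufb4, a subunit of the distal membrane arm, had 19905 at E18.5 and 41451 at E14.5 (−1.06), and was within 2-fold with median centring (−0.80).

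Just inside the 2-fold limit lay Ndufb6, with 14352 at E18.5 and 28379 at E14.5 (−0.98), and Ndufa3, with 17203 and 33508 (−0.96), both membrane arm subunits. By the scanner software's own ratio both passed it (−1.06 and −1.08), as did the second probe of Ndufa3 (−1.05). With median centring they were at −0.79 and −0.73. At the other end, Ndufb11 had 66978 at E18.5 and 49220 at E14.5 (0.44) and Ndufb5 8365 and 6706 (0.32). The 10 Ndufb genes, of the distal membrane arm, thus ran from −1.06 to 0.44, with a median of −0.49. Their median was −0.20 with median centring and −0.25 with the median over a gene's probes. Ndufv3, a complex I subunit listed under another name and not a member, gave 0.23, −0.19 and 0.22 with its 3 probes.

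Complex II, succinate dehydrogenase, is the complex without a mitochondrially encoded subunit. None of its 4 genes was 2-fold apart. The catalytic subunits were slightly lower at E18.5: the flavoprotein Sdha had 9428 at E18.5 and 11710 at E14.5 (log2 ratio −0.31), and the iron-sulphur protein Sdhb 13886 and 19588 (−0.50). The membrane anchors lay on either side of 0, Sdhc with 9043 and 14116 (−0.64) and Sdhd with 49083 and 32619 (0.59). The second probe of Sdha gave −0.03.

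Complex III, the cytochrome bc1 complex, was divided after loess, with 4 of its 8 genes above 0 and 4 below and a median log2 ratio of 0.06. With median centring its median was 0.42, so the even division depends on loess. Both nuclear catalytic subunits were above 0 and within 2-fold: the Rieske protein Uqcrfs1 had 38662 at E18.5 and 25736 at E14.5 (0.59) and cytochrome c1, Cyc1, had 45257 and 39993 (0.18). The core protein Uqcrc2 had 66785 and 38940 (0.78), and passed 2-fold with median centring (1.14). In contrast, the small subunit Uqcrb, which contacts cytochrome b, had 11353 at E18.5 and 27010 at E14.5 (−1.25), the one complex III gene that was 2-fold lower. Uqcr, another small subunit, had 37430 and 62468 (−0.74). Uqcrh, the acidic hinge protein, gave 0.22 with its brightest probe and −0.48 with its other probe, so it has no settled direction. Uqcr10, a small subunit listed under another name and not a member, had 67039 at E18.5 and 98074 at E14.5 (−0.55).

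Cycs encodes the cytochrome c of somatic cells, the carrier between complexes III and IV, which also takes part in apoptosis when it leaves the mitochondrion. Its intensity was 10209 at E18.5 and 39637 at E14.5, a log2 ratio of −1.96 and the lowest of all members. That value rests on 1 of 3 probes. The other probes, which lie side by side and overlap, gave −0.60 and −0.62, so all 3 were lower at E18.5 and only 1 by 2-fold or more. Mouse Cycs has many processed pseudogenes, and the deposited files do not show whether a probe binds their transcripts.

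The probe that set the Cycs value and the single probe of Atp5k, the ATP synthase gene with the lowest ratio, are shown because those genes are the most lowered members. They lie on the minus strand, at chr6:50494842-50494901 for Cycs and within chr5:108674089-108674344 for Atp5k, and nothing is capitalised. The interval listed for the Atp5k probe is longer than the probe, so its sequence is interrupted in the genome.
Cycs: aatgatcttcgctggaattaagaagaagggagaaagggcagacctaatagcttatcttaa
Atp5k: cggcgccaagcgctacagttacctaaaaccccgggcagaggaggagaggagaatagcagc

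Complex IV, cytochrome c oxidase, has subunits that most cells use and isoforms known from particular tissues, and the medians of these lay on either side of 0. Of the 11 general nuclear subunits, 10 were below 0 and 2 were at least 2-fold lower, with a median log2 ratio of −0.33, or −0.06 with median centring. Of the 5 measured tissue isoforms, 4 were above 0 and 2 at least 2-fold higher, with a median of 0.47, or 0.56 with median centring. Of those 4, Cox4i2 (0.02), Cox6a2 (0.47) and Cox8b (1.57) were dim. Over all 17315 genes, 9376 were above 0 and 7868 below, and 17.2% were at least 2-fold higher and 10.0% lower.

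Among the general subunits, Cox7b had an intensity of 37716 at E18.5 and 79183 at E14.5 (log2 ratio −1.07) and Cox6b1, which links the monomers of the complex, had 11461 and 23861 (−1.06). Both came within 2-fold with median centring (−0.70 and −0.89). Ndufa4, first described as a complex I subunit and now placed in complex IV, had 52156 at E18.5 and 92790 at E14.5 (−0.83). Cox5b, a zinc-binding subunit, had 53745 and 86899 (−0.69), and Cox5a, its neighbour in the complex, 68880 and 81571 (−0.24). The exception was Cox4i1, the general form of the regulatory subunit 4, with 106596 at E18.5 and 76338 at E14.5 (0.48). Cox6a1 (115520 and 124233) and Cox8a (117949 and 126643) were nearly level, both at −0.10. Cox7a2 (80599 and 97824) was slightly lower at −0.28, and its other probe gave −0.54. With median centring, Cox5a, Cox6a1, Cox7a2 and Cox8a turned positive, at 0.19, 0.41, 0.18 and 0.42.

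Among the isoforms, Cox6b2, known from testis, had 18621 at E18.5 and 8536 at E14.5, 2.18-fold higher at E18.5 (log2 ratio 1.13, and 0.96 by the scanner software's own ratio). Cox8b, known from heart and skeletal muscle, had 399.1 and 134.6 (1.57, and 2.18 by the scanner software's own ratio). Its signal lies near the low end of the array, where the size of a ratio depends on the background correction. The muscle isoforms Cox6a2 (415 and 299.7, log2 ratio 0.47) and Cox7a1 (1552 and 1816, −0.23) were within 2-fold. Cox4i2, the form of subunit 4 known from lung, was as dim as 124.2 at E18.5 and 122.5 at E14.5 (0.02). Cox7b2, an isoform that the file lists under another name and that is not a member, was well above background at E14.5 only, with 68.4 at E18.5 and 96.6 at E14.5. Beside these values, 3 of 12 striated muscle markers were called higher and 3 lower at E18.5, with a median log2 ratio of 0.14. Their summed intensity was 50391 at E18.5 and 87136 at E14.5, and without Actc1 it was 26059 at E18.5 and 10615 at E14.5, so that 1 marker sets the direction of the sum. Their part in the Cox8b value was not tested.

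**Figure D2:**
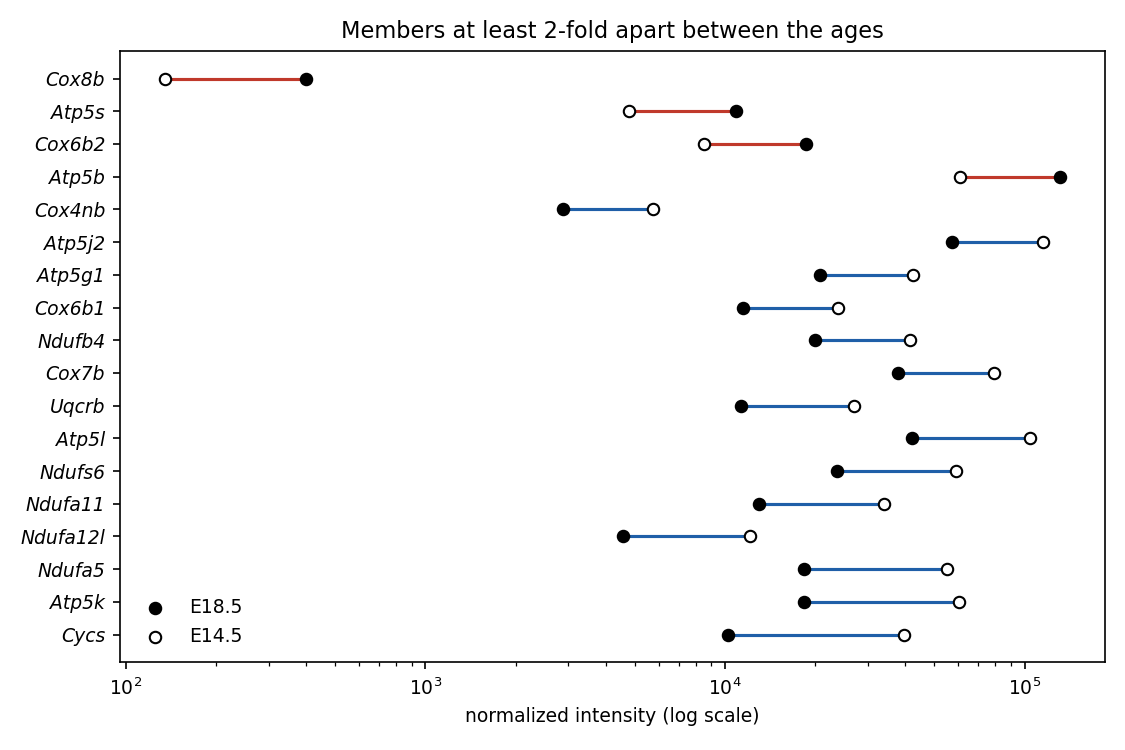
Normalized intensity at E18.5 (filled) and E14.5 (open) on a log axis for the 18 members at least 2-fold apart, with red lines for the 4 higher and blue lines for the 14 lower at E18.5. Rows run from Cox8b (399.1 and 134.6) to Cycs (10209 and 39637), and all but Cox8b lie at 2869 or above at both ages.

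ATP synthase had 15 measured genes, of which 1 was called higher and 4 were called lower at E18.5. Over all genes these shares were 17.2% and 10.0%. Grouped by place in the enzyme, with 3 to 5 genes each, the medians differed, but the c ring genes (−1.04 to −0.00) overlapped every other group. The median log2 ratio was 0.50 for the 5 genes of the F1 head, −0.36 for 4 of the peripheral stalk, −0.78 for the 3 c ring genes and −1.31 for 3 small subunits of the membrane part. With median centring these were 0.96, 0.08, −0.41 and −0.90, in the same order. With the median over a gene's probes they were 0.07, −0.45, −0.78 and −1.31.

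In the F1 head, which makes ATP, the catalytic beta subunit Atp5b had an intensity of 131336 at E18.5 and 60932 at E14.5, 2.16-fold higher at E18.5 (1.11). Its other probes gave 0.35 and −0.03, so the call rests on 1 of 3 probes. The alpha subunit Atp5a1 had 108552 and 76948 (0.50), and its other probe gave −0.35. Atp5c1, the gamma subunit that turns inside the head, had 101527 and 58857 (0.79) and has 1 probe. Relative to the median of genes of like intensity, Atp5b was at 0.94, Atp5a1 at 0.31 and Atp5c1 at 0.80. The central stalk subunits Atp5d and Atp5e, which the F1 group includes, were at −0.24 and −0.18, and at 0.08 and 0.27 with median centring.

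The small membrane subunits were lower. Atp5k, subunit e, had an intensity of 18405 at E18.5 and 60441 at E14.5, 3.28-fold lower at E18.5 (−1.72). Atp5l, subunit g, had 42058 and 103957 (−1.31), and Atp5j2, subunit f, had 57194 and 114945 (−1.01), with −0.43 from a dimmer second probe. Subunits e and g help ATP synthase form the dimers that shape the cristae. Median centring left Atp5k past 2-fold (−1.43) and put Atp5l and Atp5j2 within it (−0.90 and −0.56). Of the same membrane part, 2 small subunits carry other names in the file and are not members. They were looked up after the values of the members were known: Atp5md (named Usmg5) had 33151 at E18.5 and 71619 at E14.5 (−1.11), and Atp5mpl (named 2010107E04Rik) 34198 and 90334 (−1.40).

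The c ring, through which protons pass, is made of an identical protein encoded by 3 genes. Atp5g1 had 20685 at E18.5 and 42415 at E14.5 (−1.04), Atp5g2 40551 and 69532 (−0.78), and Atp5g3 85666 and 85803 (−0.00). The 3 genes therefore did not move alike on this array: Atp5g1 passed 2-fold after loess, at −0.77 with median centring it did not, and Atp5g3 was level after loess and at 0.45 with median centring.

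**Figure D3:**
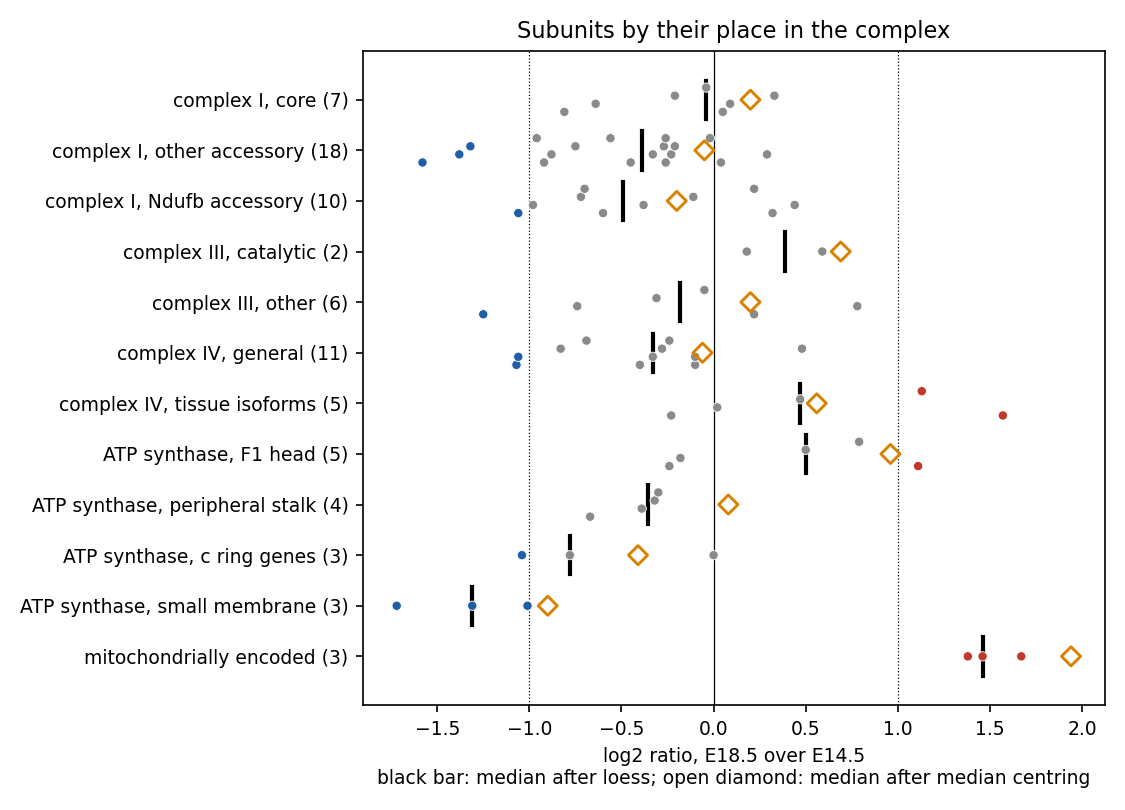
Log2 ratio of E18.5 over E14.5 (horizontal axis) for members grouped by their place in the complex, with the number of genes in brackets; points are genes after loess, red past 2-fold upwards and blue downwards, black bars are medians after loess and open diamonds are medians with median centring. The ATP synthase groups run from 0.50 (F1 head) to −1.31 (small membrane subunits), and the 3 mitochondrially encoded subunits, which are not members, lie from 1.38 to 1.67.

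The 5 genes caught by their names alone are not subunits. Ndufa12l, now named Ndufaf2, an assembly factor of complex I, had 4564 at E18.5 and 12110 at E14.5 (log2 ratio −1.41). Ndufaf1, another complex I assembly factor, had 5115 and 6040 (−0.24). Atp5s, now Dmac2l, had 10848 and 4786 (1.18), with 0.40 from its other probe. Cox4nb, now Emc8, a subunit of a membrane protein complex of the endoplasmic reticulum, had 2869 and 5756, 2.01-fold lower at E18.5, with a log2 ratio of 0.02 from a dim second probe. Cox7a2l, a factor that joins complexes III and IV into supercomplexes, had 41948 and 28791 (0.54).

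Different probes of a gene give the spread used here. Repeated spots of a probe were averaged, and their spread was not examined. Several usable probes were present for 25 members, with a median SD between probes of 0.26 in log2 ratio and a highest of 0.95 (Ndufb8, with −0.60 and 0.75), against a median of 0.33 over 7471 genes. Probes fell on both sides of 0 for 7 of the 25 members, and for 8 some probes passed the 2-fold limit and others did not. Log2 ratios smaller in size than 0.26 are therefore within that spread, which compares probes and does not measure variation between samples of an age.

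**Figure D4:**
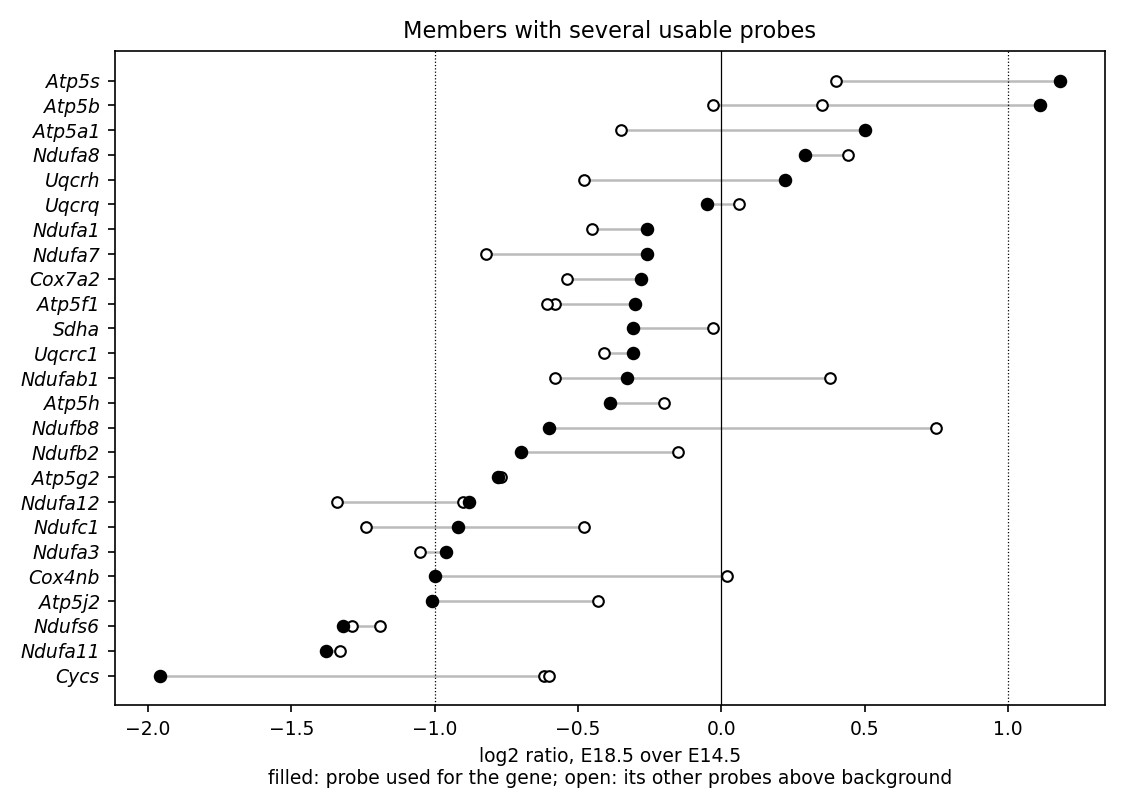
Log2 ratio of E18.5 over E14.5 (horizontal axis) for each usable probe of the 25 members with several, filled for the probe used and open for the others, with dotted lines at 2-fold. The probes of Ndufs6 and Ndufa11 lie close together below −1, those of Cycs spread from −1.96 to −0.60, and those of Atp5b from −0.03 to 1.11.

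The mitochondrial genome encodes 13 subunits of the same complexes, and probes for 3 were found on the array. All 3 passed 2-fold, and were higher at E18.5. Cytochrome b of complex III (CYTB) had an intensity of 219094 at E18.5 and 68800 at E14.5, 3.18-fold higher at E18.5 (log2 ratio 1.67). The probe named ND4L, for a complex I subunit, had 166990 and 60897 (1.46), and COX2, subunit 2 of complex IV, had 189074 and 72769 (1.38). Relative to genes of like intensity the 3 values were 1.38, 1.25 and 1.07, and with median centring 2.19, 1.94 and 1.89. Among the nuclear subunits with an average log2 intensity of at least 14, the highest ratio was that of Atp5b, 1.11.

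The 3 probes are shown because they carry this contrast with the nuclear genes. CYTB and ND4L are on the mitochondrial genome, at chrM:15099-15158 and chrM:11370-11429 on the plus strand. The file describes the ND4L probe as NADH dehydrogenase 4, so which of the neighbouring complex I genes it reads is not settled. COX2 is listed on the minus strand of chr1:24569175-24569234, where the nuclear genome holds a copy, so a match to nuclear sequence cannot be told apart from the mitochondrial RNA. Nothing is capitalised.
CYTB: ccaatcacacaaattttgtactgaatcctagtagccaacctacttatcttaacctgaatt
ND4L: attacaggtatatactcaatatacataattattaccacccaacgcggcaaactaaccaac
COX2: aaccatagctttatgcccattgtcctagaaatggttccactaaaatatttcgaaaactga

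Other mitochondrial genes were described as lists. Beside their counts, 17.2% of all genes were at least 2-fold higher and 10.0% lower at E18.5. Of the 44 measured assembly factors outside the name rule, 1 was called higher and 2 were called lower at E18.5, with a median log2 ratio of −0.07, or 0.01 with median centring. The highest was the complex I factor Timmdc1, with 1288 at E18.5 and 412.7 at E14.5 (1.64), though its other probe gave −1.94. The lowest was the complex III factor Uqcc2, with 12036 and 30016 (−1.32). The list of tricarboxylic acid cycle enzymes and pyruvate dehydrogenase, which supply the electrons, also holds pyruvate carboxylase, Pcx, which is part of neither. The 19 genes of the list had a median of 0.21, with 1 at least 2-fold higher and none lower. That 1 gene was Pcx, with 35462 and 4758 (2.90), so no cycle or dehydrogenase enzyme of the list was 2-fold apart. Lowest was Idh2, a mitochondrial isocitrate dehydrogenase, with 11818 and 14579 (−0.30).

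For synthesis of coenzyme Q, the carrier between complexes I or II and III, the median was 0.34 over 11 genes, with 2 at least 2-fold higher and 1 lower. The ends were Coq8b, with 11061 at E18.5 and 3581 at E14.5 (1.63), and Pdss1, which makes the side chain of coenzyme Q, with 1683 and 4443 (−1.40). Carriers and enzymes of energy exchange had a median of 0.08 over 11 genes, with 1 called higher and 1 lower, from the mitochondrial creatine kinase Ckmt1 (11902 and 1260, log2 ratio 3.24) to the transhydrogenase Nnt (15156 and 32017, −1.08). The 4 usable probes of Nnt ran from −1.08 to −0.31, and with median centring Nnt was within 2-fold (−0.87). Regulators of mitochondrial biogenesis had a median of −0.05 over 21 genes, with 3 at least 2-fold higher and 2 lower. Highest was the estrogen-related receptor Esrrg, with 711.9 and 160.4 (2.15, but −0.06 with its other probe), and lowest the coactivator Pprc1, with 3245 and 8088 (−1.32). After loess, the nuclear subunits had a median of −0.30 over 79 genes, below those of these 5 lists. With median centring it was 0.04, above those of the assembly factors (0.01) and the biogenesis regulators (−0.02). Whether the lists differ was not tested.

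**Figure D5:**
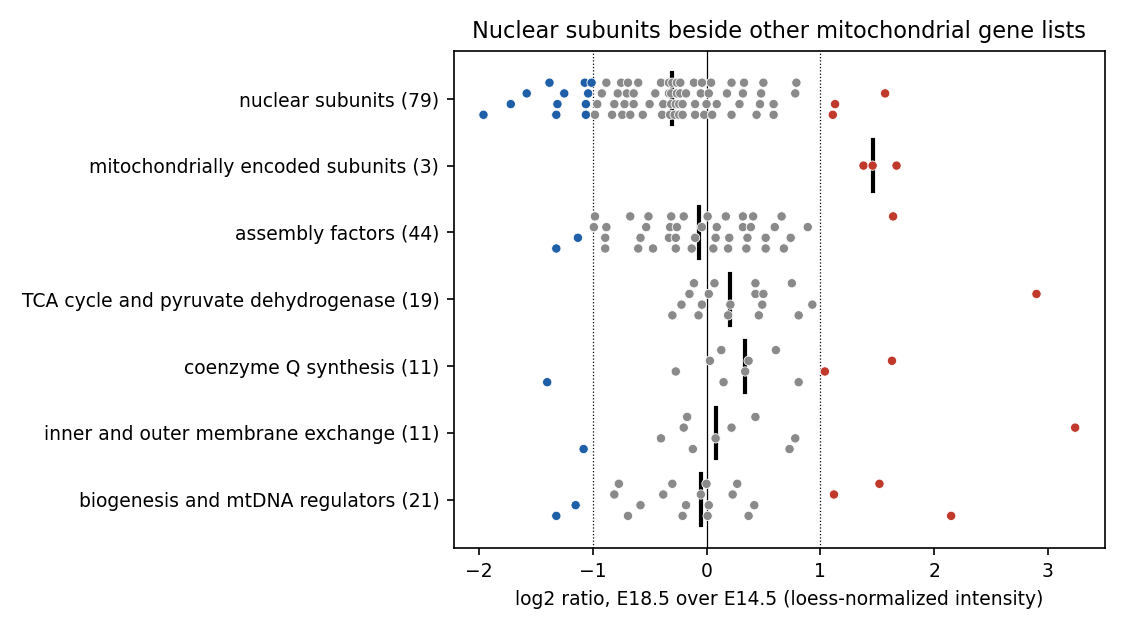
Log2 ratio of E18.5 over E14.5 (horizontal axis, after loess) for the 79 nuclear subunits with cytochrome c and for 6 other mitochondrial lists, with the number of measured genes in brackets, red past 2-fold upwards, blue downwards and black bars at medians. The nuclear subunits have a median of −0.30 (0.04 with median centring), the 3 mitochondrially encoded ones 1.46 and the other lists from −0.07 to 0.34.

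What the members share in sequence was looked at in their promoters, in windows from 250 bases before to 50 bases after the gene start, from RefSeq on build GRCm38.p6. A window was found for 69 members. Motif letters were searched on both strands. GCGCATGC, a form of the site of NRF1, a known activator of respiratory genes, was in 11 windows (15.9%), against 4.83% of the 13673 measured genes with a window and 3.05% of all 27025 windows. CCGGAAG, a site of GABPA and other ETS factors, was in 17 (24.6%), against 15.7% and 9.93%. AAGATGGC, the core of the YY1 site, was in 10 of the 69, against 4.26% and 3.19%. TCAAGGTC, the site of estrogen-related receptors, was in 4 (5.8%), against 0.995% and 1.18%.

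Of the 12 members at least 2-fold lower with a window, 4 held the NRF1 letters, 3 the ETS, 2 the YY1 and 1 the receptor letters. None of the 4 members at least 2-fold higher held any of them. A match is a description of letters, not of binding, and these counts are too small to compare. Of the factors named with these motifs, Nrf1 had 790.8 at E18.5 and 1278 at E14.5 (log2 ratio −0.69), Gabpa 5131 and 6332 (−0.30), Yy1 13505 and 15263 (−0.18) and Esrra, one of the estrogen-related receptors, 2090 and 1568 (0.42), all within 2-fold. The 3 usable probes of Yy1 ran from −0.92 to 0.42, so it has no settled direction. The receptor Esrrg, given above, was past 2-fold with 1 of its 2 probes.

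Stretches before the gene start are shown for 3 members that were at least 2-fold lower and hold the NRF1 letters, with capitals for those letters on either strand, which overlap in Ndufa11 and Atp5k. They lie at chr17:56717676-56717735 on the plus strand for Ndufa11, and on the minus strand at chr6:50566596-50566655 for Cycs and chr5:108434416-108434475 for Atp5k, all on GRCm38.p6.
Ndufa11: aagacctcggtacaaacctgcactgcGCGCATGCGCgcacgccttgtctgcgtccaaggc
Cycs: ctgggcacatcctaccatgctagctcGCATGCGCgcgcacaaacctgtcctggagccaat
Atp5k: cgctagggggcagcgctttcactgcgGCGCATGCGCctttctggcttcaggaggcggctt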

How the data were processed

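The scanner tables hold mean and background intensities per spot, linear and not normalized, as deposited by the authors, and the submitters' processing notes name Agilent Feature Extraction 9.5.3.1. They also hold a log10 ratio of red over green and 0 or 1 flags per spot, which the scanner software made, per the file headers. The 2 deposited scanner tables were identical in 115 of 115 columns and were read as 1 array. The authors' value table holds linear intensities: compared with the scanner output, each column equalled its channel's processed intensity multiplied by 0.339, with a floor of 15, not centred, with medians of 130.2 at E18.5 and 129.1 at E14.5. The origin of that constant was not found in the labels or headers.

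Of 45018 spots, 1639 were controls and 160 outliers, which were left out, and 0 were saturated. Averaging repeated spots of a probe left 41170 probes of 60 bases. Median signal over background was 308 at E18.5 and 256 at E14.5, and 78.7% and 75.2% of probes were well above background. The 1 array limits the precision. Mean intensities were corrected with normexp (offset 50) and normalized by loess with a span of 0.3 and 4 iterations, in limma 3.58.1 and R 4.3.3, after a test on simulated data; tables and plots used Python 3.11.15, numpy 2.4.6, pandas 2.3.3 and matplotlib 3.10.9. Loess hides a shift common to most genes. Through RefSeq genes of GRCm38.p6, used for names, 33096 probes were named, 24364 by accession, 6307 by symbol and 2425 by an older symbol, and 8074 were not; 17315 genes had a value. A gene's brightest probe well above background at 1 age or both was used. Where it was so at 1 age, the ratio is a bound.

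The members, lists and roles were chosen with earlier results of these data known. Members named are those at least 2-fold apart, the 3 highest and 3 lowest of each complex, catalytic subunits and isoforms, and from other lists the highest and lowest gene; 48 members met this, of which 1 is not reported here. Ndufv2, Ndufb6, Ndufa3, Ndufb8, Atp5d and Atp5e, and subunits listed under other names, were added after their values were seen. Sample groups come from the sample titles.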

Additional observations from a re-analysis of the deposited data

How the results depend on the processing

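With the median over a gene's probes, 2 members were at least 2-fold higher, against 4. With median centring in place of loess, 7 members were at least 2-fold lower, against 14, all 7 of them among the 14, and 20 members lay on the other side of 0; the medians of complex III with cytochrome c, complex IV and ATP synthase were 0.33, 0.13 and 0.08, against −0.05, −0.24 and −0.32. By the scanner software's ratio 2690 of all genes were at least 2-fold lower, against 1738, and the median of all genes was −0.05. The cause of these differences was not tested. Of 480 values for the 48 single members under 10 alternatives, 452 moved by less than 0.33, the median SD between probes over all genes, 28 by more, and none that was 2-fold apart changed sign. One alternative, the ratio relative to genes within 0.25 in average log2 intensity, was added after seeing the data. No replicate could be left out, and no paired analysis was possible because there was 1 sample per age.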
